A study of Mus musculus with 10 samples.

Results

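The MYC, MAX and MXD network is described here in long-term hematopoietic stem cells (LT-HSCs) sorted from mouse fetal livers at E14.5. The genes were taken by name, and all 10 (Myc, Mycn, Mycl, Max, Mxd1, Mxd3, Mxd4, Mxi1, Mnt and Mlx) were found among the 17404 genes of the deposited table and among the 16725 that were tested. KO libraries (n = 6) came from Tnfrsf11aCre; Spi1f/f embryos and WT libraries (n = 4) from Tnfrsf11a+/+; Spi1f/f embryos, littermates of the KO embryos, so both groups carry the floxed Spi1 alleles and differ in the Cre allele. Spi1 encodes the transcription factor PU.1, and Cre is made from the Tnfrsf11a locus, which is active in precursors of macrophages. The sorted LT-HSCs are therefore not the cells in which the deletion was directed, and the comparison asks what differs in stem cells of a liver whose macrophages were targeted. RNA of small numbers of sorted cells was amplified by SmartSeq2, which copies polyadenylated RNA along its length. The libraries were taken as separate samples, and the p-values measure the spread between them.

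MYC proteins are basic helix-loop-helix leucine zipper factors that bind DNA as a pair with MAX, at the E-box CACGTG, and raise transcription of genes for ribosome assembly, nucleotide synthesis and cell growth. MXD proteins and MNT compete for MAX at the same sites and recruit the SIN3 corepressor, a histone deacetylase complex. MLX is a MAX-like protein that pairs with the sugar-sensing factors MLXIP and MLXIPL and with some MXD proteins. In blood stem cells Myc and Mycn are known for acting redundantly in survival and for balancing self-renewal against differentiation.

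The gene totals ran from 5315435 to 30941726 estimated counts per KO library and from 7633446 to 18256010 per WT library. Spi1 ranged from 9.10 to 101 CPM (counts relative to the library total after TMM normalization for composition) in KO and from 6.22 to 50.1 CPM in WT, and Tnfrsf11a from 1.45 to 4.11 and from 0.683 to 5.80 CPM, so neither gene separated the genotypes. Summed over 8 LT-HSC markers, the level was 519 to 1500 CPM in KO and 378 to 590 CPM in WT. Of these markers, 3 (Cd34, Mecom and Hlf) were higher in KO. Genes of other cells were also present. Hepatoblast markers summed to 4297 and 5578 CPM in KO replicates 5 and 6 and to 3763 CPM in WT replicate 3, against at most 892 CPM elsewhere. Granulocyte markers were highest in WT replicate 3, at 2023 CPM, and erythroblast markers reached 4213 CPM in it. The erythroblast sums cover the 5 of 9 listed markers that were in the gene table, and globin genes were not analysed here. Endothelial markers summed to 207 CPM in WT replicate 1 and to 901 to 6121 CPM in the other libraries, with the most in KO replicate 3. Their sum exceeded that of the 8 LT-HSC markers in every library but KO replicate 6 and WT replicate 1, so the libraries held much endothelial RNA. Macrophage markers summed to 126 to 203 CPM in KO and 85.3 to 318 CPM in WT. Vcam1 made up much of these sums, and the other 9 markers summed to 39.9 to 111 CPM in KO and 30.3 to 253 CPM in WT. Of the 10 markers, 9 had a log2 fold change below 0 (median over the list -1.93), Vcam1 being the exception, and only Marco of that list passed the test, with 0 counts in all 6 KO libraries. WT replicate 1 agreed least with the other libraries, with rank correlations of 0.871 to 0.909, while each other library reached at least 0.932 with its closest match. In bulk RNA, fewer cells of a type and less RNA per cell cannot be told apart.

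No member passed the test. With edgeR's quasi-likelihood test and a Benjamini-Hochberg adjusted p under 0.1, 0 of 10 members were higher and 0 were lower in KO, beside 221 genes higher (1.32% of all tested) and 446 lower (2.67%). At an unadjusted p below 0.05, 1 member was higher (Mycn) and 1 was lower (Mlx), beside 8.6% and 10.2% of all genes tested. DESeq2 with the study's log2 fold-change threshold of 0.1 called 1 member, Mycn, higher and 0 lower, beside 3.5% and 3.29% of all genes. The log2 fold change was above 0 for 5 members and below 0 for 5, with a median of -0.0019 beside 0.062 over all genes tested. Calls over all genes needed nearly the full set of libraries: 0 genes were lower and at most 1 (Kcnq1ot1, no member) was higher without any of KO replicates 1, 2, 4, 5 and 6 or WT replicate 1, so every other gene described here as lower or higher by edgeR lost its call in these fits.

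**Figure D1:**
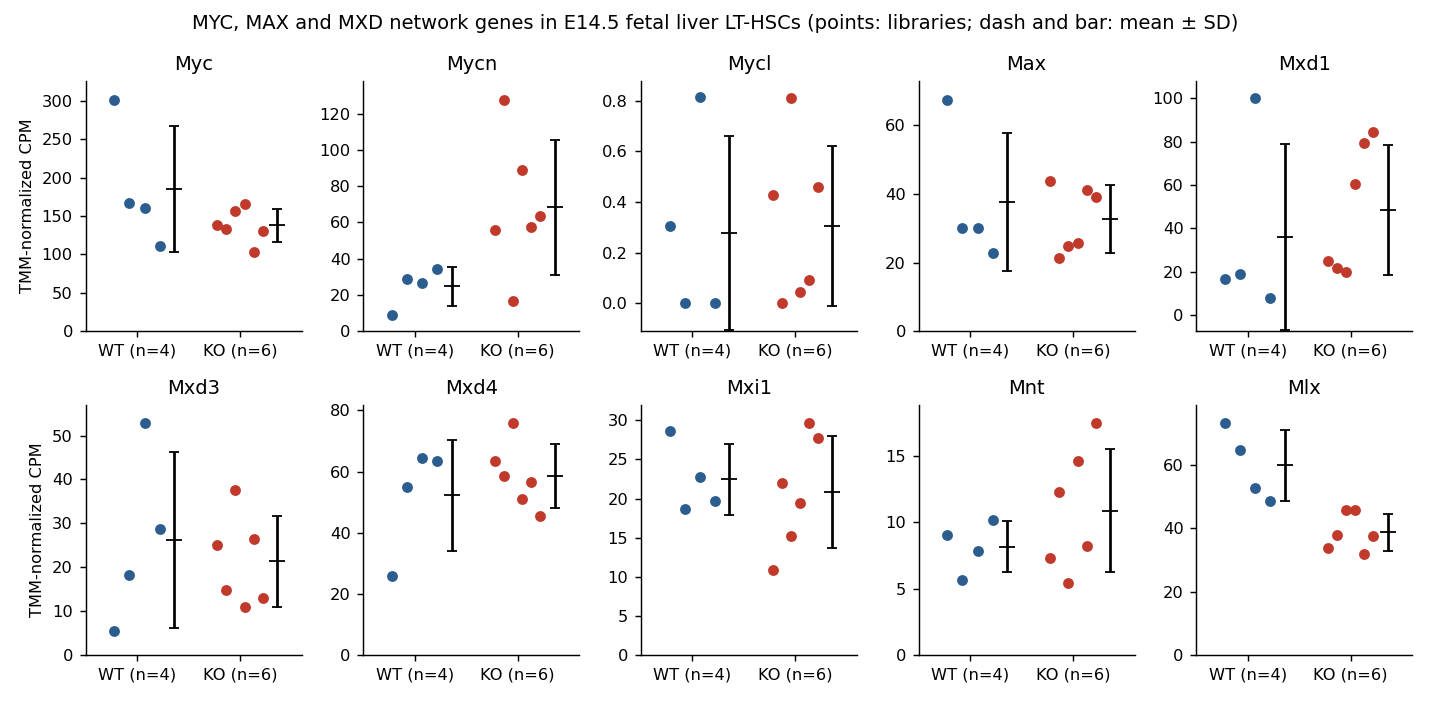
TMM-normalized CPM (vertical axes, linear, a separate scale per gene) of the 10 network genes in each WT (blue, n = 4) and KO (red, n = 6) library, with the mean ± SD of each group in black. Mlx is the only panel in which the groups do not overlap, and 5 of the 6 KO points of Mycn lie above all WT points.

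Among the MYC genes, Mycn had the largest difference between the genotypes. Mycn (ENSMUSG00000037169) lies on the minus strand of chromosome 12 of GRCm38, from 12936093 to 12941914, and encodes N-MYC, which serves many embryonic progenitors in the place of MYC. It measured 55.6, 128, 16.4, 89.1, 57.3 and 63.5 CPM in KO replicates 1 to 6. In WT replicates 1 to 4 it measured 9.10, 28.7, 26.4 and 34.5 CPM. All KO libraries but replicate 3 were thus above the highest WT library, and KO replicate 3 fell among the WT values. The KO mean was 68.3 ± 37.3 CPM (SD, n = 6) and the WT mean 24.7 ± 10.9 CPM (SD, n = 4), a log2 fold change of 1.47 (SE 0.50), or 2.77-fold. The edgeR adjusted p was 0.149 (unadjusted p = 0.0118), and the adjusted p ran from 0.038 to 0.294 over 22 alternative settings, all with a log2 fold change above 0 (1.15 to 1.98). It passed the threshold under DESeq2 with the study's settings (adjusted p = 0.081), under DESeq2 with no fold-change threshold (adjusted p = 0.038) and in edgeR without KO replicate 3 (adjusted p = 0.059).

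The summed level of the stem cell markers, of which 3 of 8 were higher in KO, stood in part in the same order as Mycn. The libraries with the highest Mycn, KO replicates 2 and 4, had 1179 and 1500 CPM over the 8 LT-HSC markers, while KO replicate 3 had 519 CPM and the WT libraries had 378 to 590 CPM. The order was not the same throughout: KO replicate 6 had 1239 CPM of the markers and less Mycn than KO replicate 2. WT replicate 1, with 562 CPM, had less Mycn than WT replicates 3 and 4, with 378 and 451 CPM. Ly6a alone made up 207 CPM of the sum in WT replicate 1, against 5.55 and 43.7 CPM in WT replicates 3 and 4. It was the 1 marker of the 8 with a log2 fold change below 0 (-0.88, SE 0.76). Relative to the summed level of these markers, Mycn stood at 3.16% to 10.8% in KO and at 1.62% to 7.66% in WT, and the groups overlapped. The part of the marker level in the Mycn difference was not tested further.

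**Figure D2:**
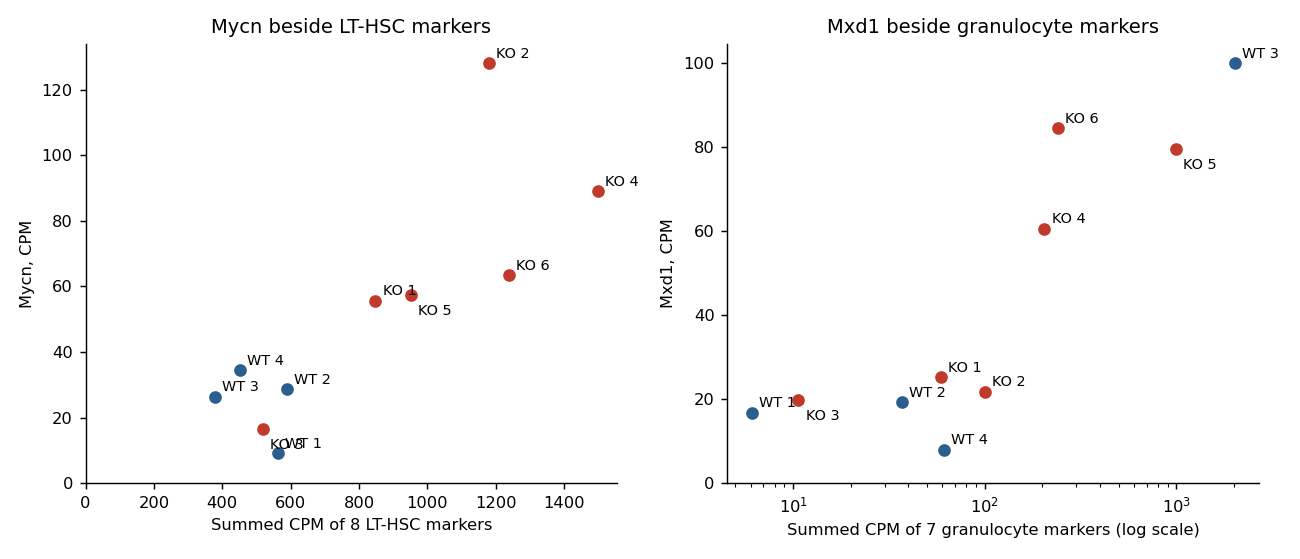
Left, Mycn (CPM) against the summed CPM of 8 LT-HSC markers in each library. Right, Mxd1 (CPM) against the summed CPM of 7 granulocyte markers (log scale). WT libraries are blue and KO libraries red. KO replicate 3 and the WT libraries form the low corner of the left panel, and WT replicate 3 with KO replicates 4, 5 and 6 the high corner of the right panel.

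Myc (ENSMUSG00000022346), the family member that drives growth in most dividing cells, lies on chromosome 15 from 61985391 to 61990374, plus strand. It measured 139, 133, 156, 166, 104 and 131 CPM in KO replicates 1 to 6 and 302, 167, 160 and 111 CPM in WT replicates 1 to 4. WT replicate 1 was the highest library by far, and without it the WT values bracketed those of 5 of the 6 KO libraries. The log2 fold change was -0.42 (SE 0.25, adjusted p = 0.387), and without WT replicate 1 it was -0.083. Mycl, known mainly from neuroendocrine and dendritic cells, was close to the limit of detection, with 0 to 15 counts per KO library and 0 to 11 counts per WT library. Its log2 fold change of 0.11 (SE 1.31) turned negative in 6 of 21 alternatives, so no direction can be given.

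On the TPM scale, which divides by transcript length and so allows genes of a library to be compared, Myc and Mycn made up nearly all of the MYC-family RNA. Mycn contributed 22.6%, 41.3%, 7.13%, 30.0%, 28.7% and 27.0% of the summed TPM of Myc, Mycn and Mycl in KO replicates 1 to 6. In WT replicates 1 to 4 its share was 2.19%, 11.3%, 11.02% and 18.5%. KO replicate 3 again lay within the WT range, and the other KO libraries above it. The family's summed TPM ran from 71.4 to 155 in KO (median 112) and from 59.0 to 139 in WT (median 79.9), and its groups overlapped widely. Myc remained the more abundant gene in every library.

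**Figure D3:**
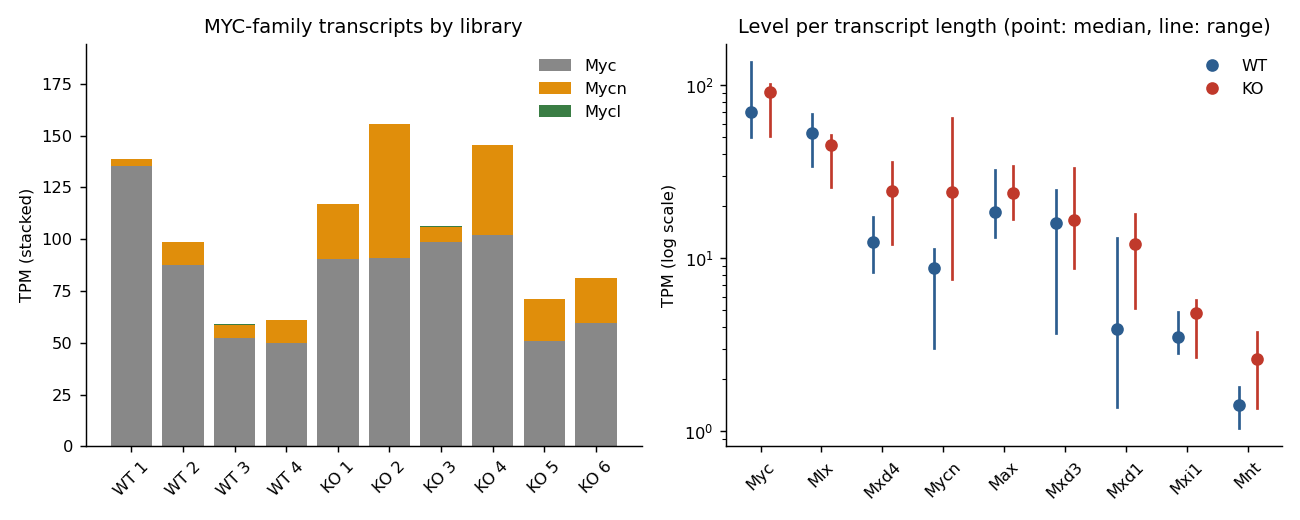
Left, TPM of Myc (grey), Mycn (orange) and Mycl (green) stacked by library. Right, TPM (log scale) of 9 network genes, each with the median (point) and the lowest to highest library (line) of WT (blue, n = 4) and KO (red, n = 6); Mycl, at 0 in some libraries, is left out. Myc and Mlx stand highest and Mnt lowest, and the orange share is largest in KO replicate 2.

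The order of the 10 genes by median TPM began with Myc and Mlx and ended with Mxd1, Mxi1, Mnt and Mycl in both groups. In KO the medians were 90.8 TPM for Myc, 45.1 for Mlx, 24.5 for Mxd4, 24.2 for Mycn, 23.9 for Max, 16.6 for Mxd3, 12.1 for Mxd1, 4.81 for Mxi1, 2.61 for Mnt and 0.086 for Mycl. Myc exceeded Mlx in 6 of 6 KO libraries, and Mlx exceeded Mxd4 in 6 of 6. Mxd4, Mycn and Max were not ordered, since Mxd4 exceeded Mycn in 2 of 6 libraries and Mycn exceeded Max in 2 of 6. In WT the medians were 69.9 TPM for Myc, 52.9 for Mlx, 18.4 for Max, 15.9 for Mxd3, 12.4 for Mxd4, 8.83 for Mycn, 3.89 for Mxd1, 3.52 for Mxi1, 1.43 for Mnt and 0.053 for Mycl. Mxd3 exceeded Mxd4 in 2 of 4 WT libraries and Mycn exceeded Mxd1 in 2 of 4 and Mxd1 exceeded Mxi1 in 2 of 4, so these neighbours were not ordered either. Mycn thus ranked 4 of 10 in KO and 6 of 10 in WT. Between groups the TPM and CPM scales did not always point the same way. Myc, Max, Mxd3 and Mxi1 had the higher median TPM in KO but a log2 fold change below 0 in CPM. The mean TPM of Myc was nearly equal, at 82.1 in KO and 81.3 in WT. TPM were not TMM-normalized, and the direction of median TPM was not counted over all genes.

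Max (ENSMUSG00000059436; chromosome 12, 76937269 to 76962201, minus strand) encodes the partner with which MYC proteins bind DNA and which MXD and MNT proteins share. It measured 43.8, 21.3, 24.7, 25.6, 41.3 and 39.2 CPM in KO and 67.5, 30.2, 30.0 and 22.8 CPM in WT. WT replicate 1 stood apart from the other WT libraries, all of which lay within the KO range. The log2 fold change was -0.20 (SE 0.33, adjusted p = 0.793), and without WT replicate 1 it was 0.24.

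The MXD genes encode antagonists that rise in many lineages as cells leave the cycle, Mxd3 being the member known from cycling cells. None of the 4 passed the test. Mxd1 (ENSMUSG00000001156, chromosome 6, 86647042 to 86669161) measured 25.2, 21.8, 19.8, 60.5, 79.4 and 84.5 CPM in KO and 16.8, 19.2, 99.9 and 7.93 CPM in WT. Both groups were split, with WT replicate 3 and KO replicates 4, 5 and 6 high and the others at or below 25.2 CPM. Megakaryocyte markers summed to 2201, 2203 and 3122 CPM in KO replicates 4, 5 and 6, to 163 to 345 CPM in KO replicates 1 to 3 and to 181 to 1099 CPM in WT, and hepatoblast markers were highest in KO replicates 5 and 6 and WT replicate 3. The 4 libraries high in Mxd1 also had the highest granulocyte marker sums, 205 to 2023 CPM against at most 99.9 CPM in the others, although 0 of the 7 markers passed the test between genotypes and Elane was at 0 counts in 4 of the 10 libraries. The sums ran from 10.7 to 997 CPM in KO and from 6.07 to 2023 CPM in WT, and the part of these cell types in the level of Mxd1 was not tested. The log2 fold change was 0.43 (SE 0.69, adjusted p = 0.790). It was 1.77 (adjusted p = 0.135) without WT replicate 3 and was -1.55 (adjusted p = 0.433) with the number of detected genes as a covariate, so the direction depended on the fit.

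Mxd3 (ENSMUSG00000021485) measured 10.9 to 37.6 CPM in KO and 5.54, 18.2, 52.8 and 28.6 CPM in WT, with a log2 fold change of -0.30 (SE 0.52, adjusted p = 0.806) that became 0.34 without WT replicate 3. Mxd4 (ENSMUSG00000037235), whose product binds SIN3 like the other MXD proteins, measured 45.6 to 75.8 CPM in KO and 25.7, 55.1, 64.6 and 63.4 CPM in WT. WT replicate 1 was the low library, and the log2 fold change of 0.17 (SE 0.26, adjusted p = 0.787) was -0.060 without it. Mxi1 (ENSMUSG00000025025), which encodes the MXD2 protein, measured 10.9 to 29.6 CPM in KO and 18.7 to 28.7 CPM in WT, with a log2 fold change of -0.11 (SE 0.31, adjusted p = 0.884). For these genes the groups overlapped over most of their range.

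Mnt (ENSMUSG00000000282; chromosome 11, 74830920 to 74845725), a MAX partner present in cycling and resting cells alike, measured 7.31, 12.3, 5.42, 14.6, 8.26 and 17.5 CPM in KO and 9.02, 5.68, 7.84 and 10.2 CPM in WT. KO replicates 2, 4 and 6 were above all WT libraries, and replicate 3 was below them. The log2 fold change was 0.41 (SE 0.41, adjusted p = 0.632).

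Mlx was the only member whose groups did not overlap in CPM. Mlx (ENSMUSG00000017801) lies on the plus strand of chromosome 11 from 101087277 to 101092207. It measured 33.7, 37.9, 45.7, 45.8, 31.9 and 37.5 CPM in KO and 73.1, 64.6, 52.8 and 48.7 CPM in WT. Every KO library was below every WT library, a pattern found for 3.48% of all genes tested (and 2.88% with KO above WT). The means were 38.8 ± 5.87 CPM (SD, n = 6) and 59.8 ± 11.1 CPM (SD, n = 4), a log2 fold change of -0.63 (SE 0.20, unadjusted p = 0.0075, edgeR adjusted p = 0.123). Over the 22 alternatives the log2 fold change ran from -0.76 to -0.52 and the adjusted p from 0.029 to 0.323. The threshold was passed under DESeq2 with no fold-change threshold (adjusted p = 0.029), after edgeR's filterByExpr (adjusted p = 0.096) and without WT replicate 4 (adjusted p = 0.098), and missed under DESeq2 with the study's settings (adjusted p = 0.106). In TPM the groups overlapped, at 25.7 to 51.6 in KO and 34.2 to 68.6 in WT.

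The last exon of Mlx shares 385 bases, 19.3% of the gene's exonic sequence, with Psmc3ip on the opposite strand. SmartSeq2 does not keep the strand, so reads there cannot be assigned to either gene with certainty. Psmc3ip, which encodes a cofactor of meiotic recombination, was itself lower in KO, at 32.7 ± 10.1 CPM (SD, n = 6) against 69.7 ± 18.7 CPM (SD, n = 4; log2 fold change -1.09, SE 0.26, edgeR adjusted p = 0.0824). The transcripts Mlx-204, Mlx-205, Mlx-206 and Mlx-207 have no base in common with Psmc3ip, and of these only Mlx-207 is annotated as coding. Mlx-204 and Mlx-206 had log2 fold changes of -0.63 (SE 0.42) and -0.81 (SE 0.42). Mlx-205 and Mlx-207, with at most 25 and 23 counts in a library, were at -3.72 (SE 1.77) and -3.00 (SE 1.57). Mlx-202, the coding transcript with the most counts, which includes the shared bases, was at -0.79 (SE 0.40). Mlx-201 and Mlx-203, which include them too, were at 0.28 (SE 0.96) and -0.28 (SE 1.71), and none of the Mlx transcripts passed the test. Mxd3 shares 105 exonic bases (4.43%) with Prelid1, whose log2 fold change was -0.17 (SE 0.22, adjusted p = 0.734). Mxd4 shares 514 bases (6.06%) with Gm42846 and Mxi1 194 bases (2.84%) with Gm10197.

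**Figure D4:**
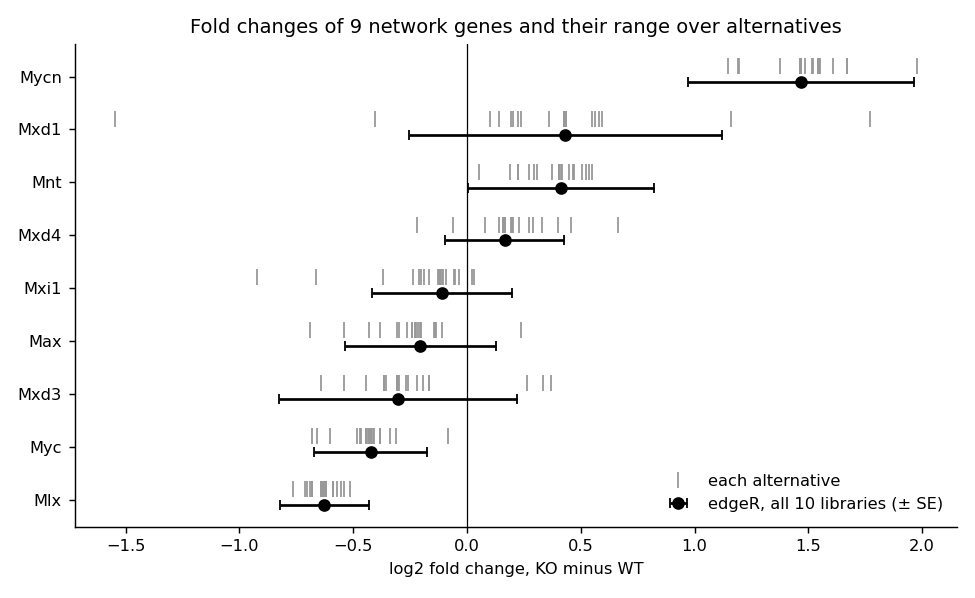
Log2 fold change, KO minus WT, of 9 network genes from edgeR with all 10 libraries (points, ± SE) and under each alternative setting (grey ticks); Mycl is left out. Mycn stays above 0 and Mlx below 0 throughout, as do Mnt (0.052 to 0.55) above and Myc (-0.68 to -0.083) below 0, whereas the ticks of the other genes lie on both sides of 0.

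Kallisto also gave estimates per transcript, and 37 of the 48 member transcripts were tested together with all others (70054 transcripts). None was called by edgeR, beside 0.00143% of all transcripts. Unadjusted p-values below 0.05 were found for 4 with higher and 1 with lower counts in KO, beside 8.86% and 5.03% of all transcripts. DESeq2 with the study's settings called 2 higher, Mxd4-204 and Mycn-201, beside 3.86% of all transcripts. Mycn RNA came mostly from Mycn-202, with 13.6 to 90.8 CPM in KO and 7.22 to 28.0 CPM in WT (log2 fold change 1.27, SE 0.50, edgeR adjusted p = 0.325). The longer Mycn-201, which has an additional exon and starts upstream of Mycn-202, had 1.72 to 20.7 CPM in KO and 0 to 4.97 CPM in WT (log2 fold change 2.61, SE 0.99, edgeR adjusted p = 0.321, DESeq2 adjusted p = 0.0905). Both coding transcripts of Mycn thus had positive fold changes.

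Mxd4-204 is a retained-intron transcript of 1 exon, on chromosome 5 from 34179744 to 34184370, and shares no base with Gm42846. It had 114, 9, 97, 116, 171 and 55 estimated counts in KO replicates 1 to 6 and 1, 2, 0 and 5 in WT replicates 1 to 4. The KO values were all above the WT values, a pattern that was not counted over all transcripts. Its log2 fold change was 4.42 (SE 1.10), with an adjusted p of 0.230 from edgeR and of 7.94e-06 from DESeq2. The coding transcript Mxd4-201 had a log2 fold change of -0.023 (SE 0.28). Retained-intron transcripts of all genes held 4.42% to 5.42% of the counts in KO and 3.49% to 5.24% in WT. Of the 5 retained-intron transcripts of members that were tested, 3 had a log2 fold change above 0.

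To show the sites by which the network could act on its own genes, the E-box CACGTG, which reads the same on both strands, was searched in RefSeq promoter windows (GRCm38.p6, 250 bases before to 50 after each start). The windows held 9 of the 10 members, Myc excepted. A match was found for 4 of these 9 genes and in 8.09% of all 27025 genes with a window. Each is printed with 12 bases on either side, 5′ to 3′ on the strand of the gene, with the E-box in capitals. The first base of the E-box lies at -40 from the start for Mlx (chr11:101087238-101087267, plus strand), at -3 for Max (chr12:76962234-76962263, minus strand), at -123 for Mnt (chr11:74830789-74830818, plus strand) and at -219 for Mxd4 (chr5:34187912-34187941, minus strand).
Mlx: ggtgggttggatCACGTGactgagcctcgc
Max: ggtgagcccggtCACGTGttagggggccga
Mnt: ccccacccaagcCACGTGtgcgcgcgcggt
Mxd4: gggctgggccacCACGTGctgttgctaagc
The 4 genes did not share a direction: the log2 fold changes were -0.63 for Mlx, -0.20 for Max, 0.41 for Mnt and 0.17 for Mxd4, none past the threshold.

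Mycn is known as a gene activated by E2F factors, and no E-box was in its window. The 172 bases upstream of the longest Mycn transcript (chr12:12941915-12942086, GRCm38.p6, minus strand) are shown since this gene had the largest fold change of the network. That transcript is Mycn-201. Mycn-202, with 69.0% to 89.3% of the gene's TPM in KO and 79.5% to 100% in WT, is annotated to start further downstream, at 12940616. E2F-type matches are in capitals (TTTCCCGC, TTTCGCGC, TTTGCCGC or TTTGGCGC, on either strand).
Mycn: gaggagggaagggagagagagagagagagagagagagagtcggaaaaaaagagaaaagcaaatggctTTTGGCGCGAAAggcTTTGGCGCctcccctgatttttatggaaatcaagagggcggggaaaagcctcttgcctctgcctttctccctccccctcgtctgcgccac
The 3 matches begin at bases 68, 72 and 83 of the printed run, and the first 2 overlap. At least 1 match was found in 2.26% of all 32851 windows. The window was picked by the gene's fold change, and a role of E2F factors in the Mycn level was not tested.

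The genes around the network were taken as lists. MLX partners and MGA, 3 genes, had 0 called in either direction. Mga, which encodes a large MAX partner with a T-box, measured 66.9 to 101 CPM in KO and 29.2 to 62.0 CPM in WT (log2 fold change 0.83, SE 0.26, adjusted p = 0.123). Its groups did not overlap, as in the 2.88% of all genes with KO above WT. Mlxip, the MLX partner also called MondoA, measured 58.2 to 112 CPM in KO and 20.2 to 72.4 CPM in WT (log2 fold change 0.85, SE 0.32, adjusted p = 0.188). Mlxipl, or ChREBP, was low at 0.183 to 7.23 CPM in KO and 0.228 to 4.36 CPM in WT (log2 fold change 0.89, SE 1.16, adjusted p = 0.735). Mga and Mlxip are long genes, with mean transcript lengths of 4936 and 3968 bases beside a median of 1878 over all genes tested. Mlxipl was at 2083 bases. Longer genes had higher fold changes, with a median log2 fold change of -0.25 in the shortest 20% of genes and 0.33 in the longest 20%. With an offset for length, Mga was at 0.33 (adjusted p = 0.545) and Mlxip at 0.40 (adjusted p = 0.552), while Mlx was at -0.70 (adjusted p = 0.125) and Mycn at 1.15 (adjusted p = 0.226).

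Of 17 SIN3 corepressor genes, 0 were higher and 1 was lower in KO (beside 1.32% and 2.67% of all genes), with a median log2 fold change of -0.0093. The lower gene was Sap30, a SIN3-associated subunit, at 6.40 to 21.1 CPM in KO and 28.2 to 38.4 CPM in WT (log2 fold change -1.39, SE 0.34, adjusted p = 0.0831). Sap18 and Hdac2 were at log2 fold changes of -0.60 and -0.62 and adjusted p-values of 0.118 and 0.192.

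Of 16 MYC coactivator genes, 1 was higher and 1 lower (beside the same 1.32% and 2.67%), with a median of 0.060. These calls and that of Sap30 were lost when any of KO replicates 1, 2, 4, 5 and 6 or WT replicate 1 was left out. They were also lost with Xist or detected genes as covariate. The call of Sap30 was lost without WT replicate 2 too, and that of the lower coactivator gene with transcript sums. The higher gene was Trrap, the scaffold of the histone acetyltransferase complexes that MYC recruits, at 111 to 176 CPM in KO and 52.9 to 90.3 CPM in WT (log2 fold change 1.05, SE 0.21, adjusted p = 0.0824). With the offset for length it was at 0.55 (adjusted p = 0.216). The lower gene was Ruvbl2, an ATPase of the same complexes, at 161 to 266 CPM in KO and 336 to 695 CPM in WT (log2 fold change -0.87, SE 0.23, adjusted p = 0.091). With the same offset Ruvbl2 was at -0.86 (edgeR adjusted p = 0.11) and was not called. Ep400 and Ruvbl1 were at 0.48 and -0.59 with adjusted p-values of 0.148 and 0.175.

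None of the 16 MYC turnover genes was called by edgeR. At an unadjusted p below 0.05, 3 were higher and 2 lower, beside 8.6% and 10.2% of all genes. DESeq2 with the study's settings called 1 higher, beside 3.5% of all genes. Huwe1, a ubiquitin ligase of MYC, was at 138 to 175 CPM in KO and 87.9 to 115 CPM in WT (log2 fold change 0.55, SE 0.16, adjusted p = 0.105). With the offset for length Huwe1 was at 0.16 (edgeR adjusted p = 0.674). Fbxo32 and Aurka were at 1.51 and -0.75 without the offset. None of the 8 genes of MIZ1 and its MYC-repressed targets was called by edgeR. With unadjusted p-values below 0.05, 1 was higher and 0 lower, beside the same 8.6% and 10.2%. DESeq2 called 1 higher, beside the same 3.5%. Cdkn1a, the cell cycle inhibitor p21 that MYC represses through MIZ1, was at 22.8 to 76.5 CPM in KO and 9.25 to 29.3 CPM in WT (log2 fold change 1.31, SE 0.40, adjusted p = 0.118). Cdkn1b, Ndrg1 and Gadd45a were at 0.49, -0.63 and -1.02.

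Of the 57 MYC-activated targets, 10 were lower in KO (17.5%, beside 2.67% of all genes tested) and 0 higher. The log2 fold change was below 0 for 50 of 57, with a median of -0.48 beside 0.062 over all genes. The 10 genes were Nme1, Mrto4, Nip7, Wdr74, Phb, Ddx18, Nop16, Hspe1, Dkc1 and Nop56, of which most serve ribosome assembly, Nme1 nucleotide supply, and Phb and Hspe1 the upkeep of mitochondria. Nme1 measured 272 to 460 CPM in KO and 526 to 1122 CPM in WT (log2 fold change -1.15, SE 0.23, adjusted p = 0.0824). Mrto4, a factor of large-subunit assembly, measured 61.4 to 82.3 CPM in KO and 113 to 335 CPM in WT (log2 fold change -1.31, SE 0.27, adjusted p = 0.0824). Nip7 and Wdr74, which serve the same process, were at -0.93 and -1.06, both with an adjusted p of 0.0824. In 12 of the 57 genes all KO libraries were below all WT libraries, beside 3.48% of all genes tested. These calls were not kept when WT replicate 1 or any of 5 KO libraries was left out, as given below.

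**Figure D5:**
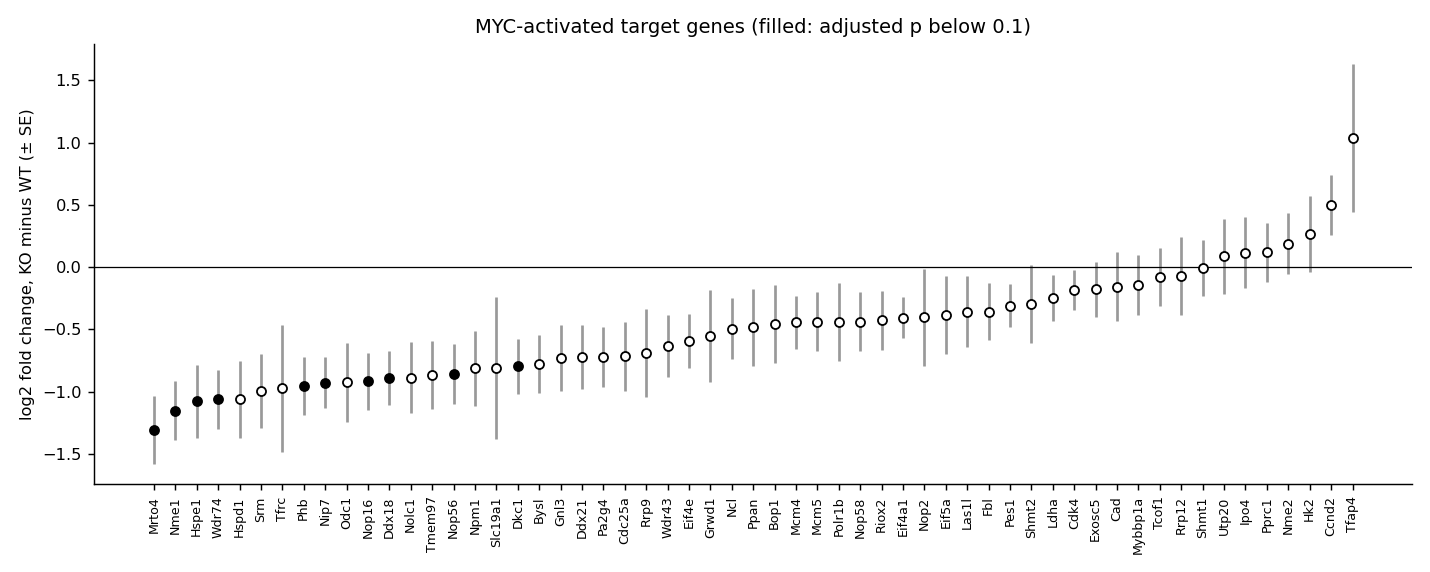
Log2 fold change, KO minus WT (± SE), of the 57 MYC-activated target genes in rising order; filled points passed an adjusted p below 0.1. The 10 filled points lie between -1.31 and -0.80, and 7 genes lie above 0.

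Summed over the list, MYC-activated targets reached 16055, 14105, 15712, 13159, 12849 and 15924 CPM in KO replicates 1 to 6 and 32784, 18515, 18792 and 16036 CPM in WT replicates 1 to 4. WT replicate 1, which was also the highest in Myc, Max and Mlx, stood far above the rest, and WT replicate 4 lay within the KO range. Without WT replicate 1, 0 of the 57 genes and 0 of all genes were called by edgeR (1264 higher and 1316 lower genes with unadjusted p-values below 0.05). The list's median was then -0.23 beside 0.085 over all genes, with 42 of 57 below 0. Of these, 16 had an unadjusted p below 0.05 (24 with all libraries, beside 10.2% of all genes). Without KO replicate 1, 2, 4, 5 or 6, again 0 of the 57 passed, with medians of -0.53 to -0.44 and 47 to 51 of 57 below 0, and the same was so without the 3 libraries high in hepatoblast markers, a choice made after seeing the data (median -0.54, 49 of 57 below 0). With the offset for length, 16 were lower (beside 4.22% of all genes) and the median was -0.72 beside -0.19 over all genes. DESeq2 with the study's settings called 11 lower and 0 higher, beside 3.29% and 3.5% of all genes. Of the 48 target genes with a promoter window, 16 (33.3%) held CACGTG, beside the 8.09% of all genes given above. The genes were listed as MYC-activated targets, so a high share goes with that choice and says nothing about the genotypes. Erythroblast markers moved beside this list: 0 of the 5 tested were called by edgeR in the main fit, but all 5 had a log2 fold change below 0 (median -1.50). Their sums were 172 to 1511 CPM in KO and 143 to 4213 CPM in WT. Klf1, an erythroid transcription factor, measured 747, 276, 777 and 62.7 CPM in WT replicates 1 to 4 and 63.6 to 211 CPM in KO (log2 fold change -1.99, SE 0.56, edgeR adjusted p = 0.101). Klf1, named after its values were seen, was called lower by DESeq2 with the study's settings (adjusted p = 0.0274, beside 3.29% of all genes). With the offset for length it was also called lower (edgeR adjusted p = 0.0698, beside 4.22% of all genes). WT replicate 4 was low in both Klf1 and the target sum. Other markers of the list went another way. In WT replicate 1, with the highest target sum, Alas2 was at 2.81 CPM and Epb42 at 17.2 CPM. In WT replicate 3 they were at 1810 and 328 CPM, beside a target sum of 18792 CPM. Tfrc is on both lists and was not called. The part of erythroid RNA in the target levels was not tested.

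The genes whose pattern over the 10 libraries was most like that of Myc, by the root mean square difference of centred log2 CPM among 9495 genes with a mean of at least 10 CPM, were Metap1 (0.137), Ccdc86 (0.139) and Kars (0.153), beside a median of 0.597 over these genes. All 3 peaked in WT replicate 1, at 93.4, 178 and 568 CPM. For Mycn they were Arhgef6 (0.223), Lsp1 (0.258) and Chd3 (0.296), beside a median of 1.22. Arhgef6 measured 47.2, 78.6, 13.5, 104, 52.6 and 54.0 CPM in KO and 8.04, 23.3, 26.5 and 31.4 CPM in WT. As with Mycn, KO replicates 2 and 4 were its highest libraries and WT replicate 1 and KO replicate 3 its lowest.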

How the data were processed

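LT-HSCs of 6 KO and 4 WT libraries were measured by SmartSeq2. The authors demultiplexed with bcl2fastq 2.20 and quantified transcripts with kallisto 0.44.0. They deposited estimated counts and TPM per transcript and library. They also deposited 1 gene table of estimated counts, summed by symbol, rounded and not normalized. Of its values, 97.5% were within 1 count of the transcript sums. It held 17404 genes, of which 50 had no counts in any library. Of 9 listed erythroblast markers, 5 were in it, so some genes were absent, and the rule for leaving them out is not known. The gene table as deposited, for genes of at least 11 counts in total (the study's filter, read as a total), was compared with edgeR 4.0.16 (R 4.3.3, limma 3.58.1; TMM, glmQLFit, glmQLFTest) at a Benjamini-Hochberg adjusted p below 0.1, the study's threshold. Standard errors were derived from the F statistic. Kallisto's transcript estimates, rounded, were tested likewise. DESeq2 1.42.0, the study's tool, with its log2 fold-change threshold of 0.1, and the other settings listed in the closing section were alternatives. CPM are TMM-normalized; the deposited TPM were summed by gene and used as a description. Deposited TPM come from the authors' kallisto run and correct for effective length. The steps were tested on simulated data. Positions and transcripts are of Gencode vM21 on GRCm38 and 16888 of 17404 symbols matched it. The members and lists were chosen with earlier results of these data known, and a list's count is no independent evidence of its direction. The genes named are all members, MLX partners and Mga, the 4 genes of smallest p of each other list (for MYC-activated targets all 10 called are named after their values were seen), the 3 genes most like Myc and Mycn, Spi1, Tnfrsf11a and genes overlapping a member; some genes the rule names are not reported here. Reads carry no molecular identifiers. Python 3.11.15 with pandas 2.3.3, NumPy 2.4.6 and matplotlib 3.10.9 was used for tables and plots.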

Additional observations from a re-analysis of the deposited data

Results flagged for a closer look

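A library was singled out for a gene where its gap to the nearest library of its group, divided by the range of the group, exceeded Dixon's 95% critical value. This was so 9 times in 66 groups of values of the named genes, always for WT replicate 1 or 3 or KO replicate 5 or 6. The groups reuse the same 10 libraries over chosen genes, so no chance rate can be set beside the 9. WT replicate 1 was far above the other WT libraries for Max (67.5 CPM, the others 22.8 to 30.2), Ruvbl2 (695 CPM, the others 336 to 357), Ruvbl1 (505 CPM, the others 243 to 274) and Wdr74 (296 CPM, the others 125 to 139). WT replicate 3 was high for Mxd1 (99.9 CPM, the others 7.93 to 19.2) and Mlxipl (4.36 CPM, the others 0.228 to 0.355) and low for Hdac2 (54.2 CPM, the others 85.5 to 88.5). In KO, Mlxip was low in replicate 6 (58.2 CPM, the others 93.7 to 112) and Ruvbl2 in replicate 5 (161 CPM, the others 230 to 266).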

How the results depend on the processing

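No paired analysis was possible because the replicates carry no number in the labels that links KO to WT libraries. Of 219 member fold changes under alternatives, 197 kept their direction and side of the threshold, 6 newly passed it (those of Mycn and Mlx given above) and 16 changed sign, of genes that were not called in any fit. The cause was not tested. Sign changes were, for Mxd1, -0.40 with Xist and -1.55 with detected genes as covariate, for Mxd3 0.27 with detected genes and 0.37 without the 3 libraries high in hepatoblast markers (KO replicates 5 and 6, WT replicate 3; chosen after seeing the data), and with the length offset -0.22 for Mxd4 and -0.0035 for Mycl. With single libraries left out, the range was -0.45 to 1.50 for Mycl, -0.38 to 0.24 for Max, -0.64 to 0.34 for Mxd3, -0.060 to 0.33 for Mxd4 and -0.21 to 0.030 for Mxi1. Members called numbered 0 higher and 0 lower, with 1 higher under DESeq2 whether the fold-change threshold was 0.1 or absent, 1 lower under DESeq2 without it and under filterByExpr, and 0 to 1 in each direction with single libraries left out. Member transcripts called were 0, and 2 under DESeq2. Over all genes (221 higher and 446 lower), 0 and 0 were called with Xist or detected genes as covariate, without the 3 libraries and at an adjusted p below 0.05, where edgeR's unadjusted calls were 912 and 1548, 900 and 1632, 1266 and 1532, and 1438 and 1701. Higher genes were 585 under DESeq2 with the threshold of 0.1, 998 under DESeq2 with none and 71 with the length offset. Lower genes were 1145 under DESeq2 without the threshold and 705 with the length offset. Leaving out single libraries gave 0 to 405 higher and 0 to 598 lower genes, both 0 without KO replicates 1, 2, 5 or 6 or WT replicate 1 (1160 to 1303 higher and 1316 to 1663 lower unadjusted). DESeq2 size factors, other count filters and transcript sums changed no member call beyond those named.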
